A study of Mus musculus with 6 samples.

Results

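Regional identity transcription factors, a set of 9 genes chosen by symbol (Neurod6, Neurod2, Tbr1, Tcf7l2, Prox1, Zic1, Rora, Six3 and Meis2), were followed across the brain regions of 6 mouse brain sections. They are 9 of the 19465 genes counted, and all 9 had UMIs in every section. The sections were coronal, formalin-fixed and paraffin-embedded (FFPE), and came from untreated male C57BL/6J mice, 2 sections at each age. P21 mice were 21 days old, adult mice 12 to 15 weeks and aged mice 28 months. By the labels P21 mice were bred in-house from Jackson Laboratory parents, adult mice were bought from Jackson Laboratory and aged mice came from the National Institute on Aging (NIA), while the study's methods name Jackson Laboratory as the one source. By the study's methods, P21 and adult sections lay directly on Visium v1 slides, and aged sections reached Visium v2 slides through CytAssist. CytAssist is an instrument that moves probes from a tissue slide to a capture slide. The labels name the v1 slide kit for all samples, and the study's methods are followed here. The aged libraries, by the study's methods, also used a changed probe design meant to raise sensitivity. Aged vs. adult therefore compares age, slide version, probe design, Space Ranger version and, by the labels, mouse source at once. These cannot be told apart. P21 vs. adult shares the slide version and Space Ranger version. By the labels it differs in mouse source as well as age, and these cannot be told apart either.

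These genes encode DNA-binding proteins that, in development, set the identity of neurons of a brain region and that many of those neurons keep expressing for life. Neurod6 and Neurod2 are bHLH factors of glutamatergic neurons of the cortex and hippocampus, and Tbr1 is a T-box factor of cortical projection neurons, above all of the deep layers. Tcf7l2, a partner of beta-catenin in Wnt signalling, Zic1, a zinc finger factor, and Rora, a nuclear receptor, mark thalamic neurons. Prox1, a homeodomain factor, marks granule cells of the dentate gyrus (DG). Six3 and Meis2 are homeodomain factors of striatal neurons, and Six3 also marks the reticular thalamus.

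The genes lie on separate chromosomes for the most part. On GRCm38 (GENCODE vM21) the protein-coding gene Neurod6 spans 3442 bases of chromosome 6 (55677822 to 55681263, minus strand), Neurod2 spans 4234 bases of chromosome 11 (98325415 to 98329648, minus strand) and Tbr1 spans 11185 bases of chromosome 2 (61802930 to 61814114, plus strand). Tcf7l2 spans 191835 bases of chromosome 19 (55741820 to 55933654, plus strand), Zic1 7753 bases of chromosome 9 (91358058 to 91365810, minus strand) and Rora 734461 bases of the same chromosome (68653786 to 69388246, plus strand). Prox1 spans 52680 bases of chromosome 1 (190118035 to 190170714, minus strand), Six3 15695 bases of chromosome 17 (85613608 to 85629302, plus strand) and Meis2 202776 bases of chromosome 2 (115863064 to 116065839, minus strand). Counts are per gene and do not separate transcripts.

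RefSeq promoter windows were found for 9 of 9 genes. The 250 bases before the start are shown for the 3 cortical members, whose levels far from the cortex moved together as described below, and for Zic1 and Tcf7l2, which had alike profiles over zones. All are on GRCm38.p6, written 5′ to 3′ on the strand of the gene, at chr6:55681264-55681513 (minus) for Neurod6, chr11:98329646-98329895 (minus) for Neurod2, chr2:61804203-61804452 (plus) for Tbr1, chr9:91365769-91366018 (minus) for Zic1 and chr19:55741560-55741809 (plus) for Tcf7l2. Capitals mark the E-box letters CANNTG, the core read by bHLH factors, which read the same on both strands.
Neurod6: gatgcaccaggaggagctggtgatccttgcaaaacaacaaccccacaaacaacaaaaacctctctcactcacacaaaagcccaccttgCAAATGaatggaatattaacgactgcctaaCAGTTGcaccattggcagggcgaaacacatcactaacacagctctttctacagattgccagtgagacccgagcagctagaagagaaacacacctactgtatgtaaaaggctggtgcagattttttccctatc
Neurod2: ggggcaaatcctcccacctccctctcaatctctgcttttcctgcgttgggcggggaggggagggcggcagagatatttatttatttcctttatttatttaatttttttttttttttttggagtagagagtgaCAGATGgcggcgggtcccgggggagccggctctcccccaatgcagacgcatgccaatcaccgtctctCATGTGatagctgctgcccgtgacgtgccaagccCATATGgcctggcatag
Tbr1: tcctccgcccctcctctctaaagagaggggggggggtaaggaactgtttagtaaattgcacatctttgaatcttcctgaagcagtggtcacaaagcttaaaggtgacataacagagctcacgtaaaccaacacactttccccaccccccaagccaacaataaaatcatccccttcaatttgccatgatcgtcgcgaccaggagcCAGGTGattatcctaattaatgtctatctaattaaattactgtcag
Zic1: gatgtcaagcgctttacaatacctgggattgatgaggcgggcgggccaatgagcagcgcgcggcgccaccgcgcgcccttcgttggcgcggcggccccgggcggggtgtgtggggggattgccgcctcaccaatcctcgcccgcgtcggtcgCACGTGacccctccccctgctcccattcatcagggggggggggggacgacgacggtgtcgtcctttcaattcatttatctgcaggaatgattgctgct
Tcf7l2: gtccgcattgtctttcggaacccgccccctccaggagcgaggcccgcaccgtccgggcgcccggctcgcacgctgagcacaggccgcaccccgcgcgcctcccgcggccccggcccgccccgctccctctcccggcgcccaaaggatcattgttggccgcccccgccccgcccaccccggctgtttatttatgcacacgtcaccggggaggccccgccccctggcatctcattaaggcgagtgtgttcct
The Neurod6 window held 2 matches, the Neurod2 window 3, the Tbr1 window 1, the Zic1 window 1 and the Tcf7l2 window 0. Of 32851 windows of this length, 66.2% held at least 1, with a mean of 1.16. The variant CAGATG, or CATCTG on the other strand, was in the Neurod2 window and not in the other 4 shown, against 14.4% of all windows. A match of letters is a description and not a binding site.

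Spots were placed in zones by clustering without the 9 genes: the striatum (STR), cortex (CTX), thalamus (TH) and its reticular nucleus (RT), hippocampus (HP), hypothalamus (HY), meninges (MEN), fiber tracts (FT) and ventricular system (VS). Each gene was given a home zone and distant zones from general knowledge. Levels are CPM, the UMIs of a gene per 1000000 UMIs of all spots of a zone in a section, and are compared within a gene only. The 6 sections held 20336 spots, with median depths from 12074.5 to 25535 UMIs per spot, and no aged spot barcode occurred in a P21 or adult section. The zones differed in size between sections, and the HY held 369 and 427 spots in adults but 609 and 844 in aged mice. A spot holds several cells, so fewer cells of a type and less RNA per cell cannot be told apart.

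For 5 of the 9 genes the zone with the highest median level was the home zone or a part of it. Meis2 was highest in the STR (median over 6 sections 386 CPM) and next in the RT (149 CPM). Rora was highest in the TH, at 977 CPM, against 186 CPM in upper CTX. Prox1 was highest in the DG at 640.0 CPM and, outside the HP, stood at 159 CPM in the RT and 153 CPM in the TH, values whose ranges overlapped (122 to 216 and 131 to 185 CPM). Tcf7l2 was highest in the TH, at 247 CPM. Tbr1 was highest in the deep CTX, at 66.5 CPM (range 55.4 to 73.6) against 50.5 CPM in the upper CTX (38.4 to 58.4), and was higher in the deep part in 6 of 6 sections. Six3 went against its assigned home. It stood at 589 CPM in the RT (410 to 995) and 93.3 CPM in the STR (67.8 to 154), with no overlap.

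Neurod6 and Neurod2 were also higher in the HP than in the CTX, and they differed in the hippocampal field with the highest median. Neurod6 was at 610 CPM in CA3 (502 to 824) and 528 CPM in CA1-2 (409 to 624), which overlapped, and at 60.7 CPM in the DG. Neurod2 ran the other way, with 545 CPM in the DG (371 to 570), 329 CPM in CA3 (261 to 428) and 256 CPM in CA1-2 (205 to 318). Its DG and CA3 ranges overlapped, and so did those of CA3 and CA1-2. Within the CTX, Neurod6 was higher in the deep than in the upper part in 6 of 6 sections, and Rora was lower in the deep part in 6 of 6. The plot of median levels by zone shows these patterns.

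**Figure D1:**
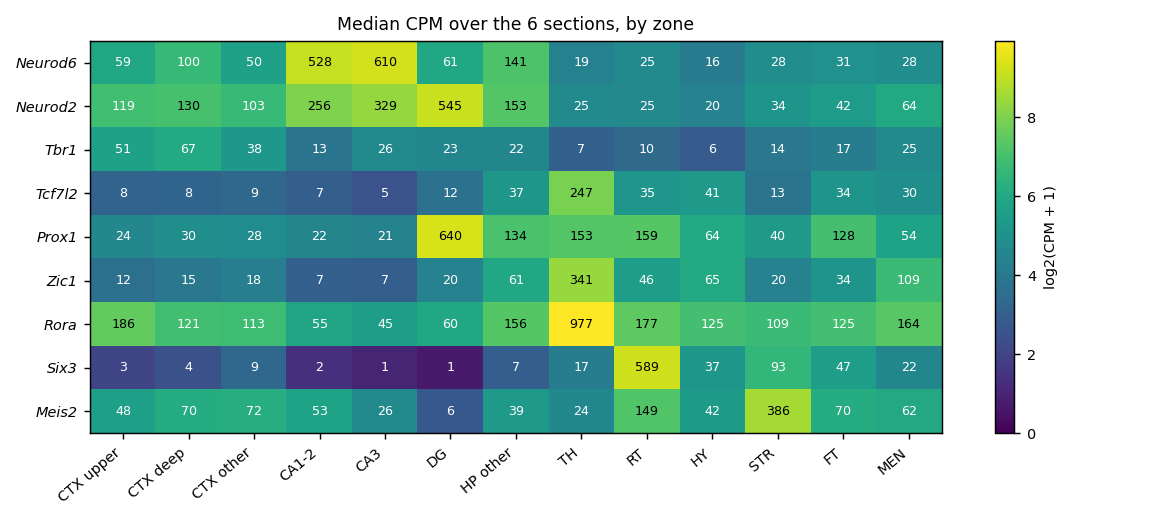
Median CPM over the 6 sections (numbers; colour is log2(CPM + 1)) for each gene (rows) in each zone (columns). Neurod6 and Neurod2 peaked in different hippocampal fields, Six3 in the RT at 589 CPM, and Rora in the TH at 977 CPM.

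Zic1 had its highest level outside its home zone, in the medial habenula, a small nucleus next to the TH that was split from the VS cluster by its markers. There it reached 942, 994, 1113, 957 and 1242 CPM in P21 sections 1 and 2, adult section 2 and aged sections 1 and 2. Tcf7l2 was at 176, 133, 225, 220.3 and 319 CPM in the same spots. The 17 spots so placed in adult section 1 went against the name. They held the habenular genes Gpr151 at 1.87 CPM and Chrna3 at 0 CPM, against at least 416 and 348 CPM in the other 5 sections, while the choroid plexus gene Ttr was at 43021 CPM. Ttr was also at 26925 CPM in these spots of aged section 1, at 9671 and 9575 CPM in the P21 sections, and at 160 and 2800.2 CPM in adult section 2 and aged section 2. In the 17 spots of adult section 1, Zic1 was at 28.0 CPM and Tcf7l2 at 5.60 CPM. With that section the median Zic1 level was 976 CPM. No test was made in this zone.

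The genes with the most similar profile over zones were sought among 11821 genes. Pearson correlation of log2(CPM + 1) was taken over 96 sums, from 16 zones in 6 sections. The CTX, HP and VS entered as their parts and not as a whole. The sums share sections, so the r values are descriptions. Tcf7l2 was most like Zic1 (r = 0.88), Amotl1 (0.86) and Tafa4 (0.85). Zic1 was most like Syt9 (0.92), Gdf11 (0.91) and its family member Zic4 (0.90). Neurod6 was most like Prkca (0.90), Hpca (0.87), a hippocalcin, and the zinc finger factor Zbtb18 (0.87). Neurod2 was most like Nptx1 (0.92), Fam131a (0.91) and Rtn4rl2 (0.90), and Tbr1 most like the pallial homeodomain factor Emx1 (0.88), Kcnv1 (0.87) and Lmo4 (0.85). Meis2 was most like Dlx6 (0.78), Adcy5 (0.78) and Dlx5 (0.77), of which Dlx5 and Dlx6 are homeodomain factors of GABAergic neurons. Rora was most like Ccdc136 (0.90), Plcb4 (0.88) and Cthrc1 (0.86), Prox1 like Il1rap (0.83), Abcb10 (0.82) and Dock10 (0.79), and Six3 like Abat (0.84), Gpx1 (0.82) and Rassf8 (0.82).

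Levels in the home zones are given first. In the order P21 sections 1 and 2, adult sections 1 and 2 and aged sections 1 and 2, which holds for all lists of 6 values here, Neurod6 was at 73.9, 69.8, 76.4, 95.5, 72.4 and 88.9 CPM in the CTX. Its ages overlapped. Neurod2 was at 115, 111, 125, 116, 166 and 151 CPM, and the aged sections stood above the other 4. Tbr1 was at 54.3, 43.7, 58.1, 55.2, 59.2 and 56.3 CPM, with P21 the lowest and adult and aged overlapping.

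Among thalamic genes, Tcf7l2 was at 221, 248, 219, 246, 458 and 484 CPM in the TH. P21 and adult overlapped and both aged sections were far above them. Zic1 was at 305, 319, 309.8, 362, 481 and 448 CPM, again with the aged sections highest. Rora was at 732, 729, 934, 1020.3, 1084 and 1036 CPM, with the P21 sections lowest.

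In the STR, Six3 was at 67.8, 89.4, 85.1, 97.2, 154 and 144 CPM and Meis2 at 297, 324, 377, 395, 489 and 478 CPM. For both genes the aged sections were above all others, and for Meis2 the P21 sections were below the adult ones. Prox1 in the DG was at 719.7, 745, 578, 602, 490.4 and 678 CPM. Its aged sections lay on either side of the adult ones.

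In P21 vs. adult, 0 of 9 genes passed an adjusted p of 0.05 (edgeR quasi-likelihood test, Benjamini-Hochberg over all genes of the zone) together with a fold change over 1.5 in the home zone. The share of all genes called there was 5.13% in the CTX, 7.59% in the TH, 4.08% in the STR and 7.13% in the DG. Rora alone passed the adjusted p, with a log2 fold change of −0.39 ± 0.08 (SE, adjusted p = 0.00714), and was under the fold limit. At an unadjusted p of 0.05, Meis2 (−0.28 ± 0.09, adjusted p = 0.0719) and Prox1 (0.28 ± 0.13, adjusted p = 0.189) passed too, and DESeq2 also called 0.

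In aged vs. adult, 2 of 9 genes were called in the home zone, both higher in aged sections. Tcf7l2 rose in the TH by 1.02 ± 0.09 on the log2 scale (adjusted p = 3.38e-05) and Six3 rose in the STR by 0.71 ± 0.12 (adjusted p = 0.000203). The share of all genes called was 11% in the CTX, 14.2% in the TH, 14.6% in the STR and 7.22% in the DG. Neurod2 in the CTX (0.40 ± 0.08, adjusted p = 0.00230), Zic1 in the TH (0.47 ± 0.09, adjusted p = 0.00319) and Meis2 in the STR (0.32 ± 0.09, adjusted p = 0.00937) passed the adjusted p and not the fold limit. When the fold limit was built into the test (glmTreat), Six3 was lost (adjusted p = 0.624). Without adult section 2, Zic1 was called as well (0.63, adjusted p = 0.00545), and without adult section 1 or any other section Tcf7l2 and Six3 were still called.

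Tcf7l2 is also expressed by newly formed oligodendrocytes, so their markers are given beside it. In the TH, of 7 genes of newly formed oligodendrocytes and precursors, 6 were tested in aged vs. adult, 0 rose and 2 fell, and their summed level was 84.6 to 94.0 CPM in aged, 119 to 128 CPM in adult and 297 to 307 CPM in P21 sections, with no gene at 0. Of 8 mature oligodendrocyte genes 6 fell. Of 8 pan-neuronal genes 1 rose and 1 fell, with sums of 7111 to 7170.2 CPM in aged and 7266 to 7536 CPM in adult sections. Of all genes in the TH, 6.75% were called higher and 7.46% lower. The part of these cells in the Tcf7l2 level was not tested. In the STR, a list chosen for interneurons (Vip, Htr3a, Sst, Pvalb, Npy, Gad1 and Gad2) was higher in the aged sections (2496 to 2744 CPM against 1923 to 1955 CPM in adult). Of 6 tested genes 2 were higher and 2 lower, against 8.48% and 6.17% of all genes there. Gad1 and Gad2 also served as markers of the RT and are not particular to interneurons. The cells behind this sum, and their part in the Six3 level, were not tested.

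Six3 was higher in aged sections in the RT as well, at 497, 681, 410, 488, 995 and 868 CPM (log2 fold change 1.08 ± 0.12, adjusted p = 1.15e-07). It also rose in the FT, where it was at 42.5, 50.7, 22.5, 26.9, 95.8 and 56.5 CPM (1.69 ± 0.20, adjusted p = 2.36e-06). In P21 vs. adult the FT difference was 0.97 ± 0.21 (adjusted p = 0.00257).

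Other region factors, chosen as lists, were counted in the zone they are named for. Of 13 striatal factors tested in aged vs. adult in the STR, 7 rose and 0 fell, with a median log2 fold change of 0.64 against 0.00 over all genes. Of all genes there, 8.48% were called higher and 6.17% lower. The 7 factors were Bcl11b (0.89), Rarb (0.88), Rxrg (0.90), Sp9 (0.72), Dlx5 (0.70), Isl1 (0.67) and Ebf1 (0.64). Of 8 thalamic factors 6 were tested in the TH and 3 rose, Gbx2 (1.31), Foxp2 (0.90) and Lhx9 (0.69), with a median of 0.57 against −0.01 over all genes, of which 6.75% were called higher. Of 15 pallial factors 0 rose and 0 fell in the CTX (median −0.06), where 7.45% of all genes were called higher and 3.56% lower. Of 10 hypothalamic factors 4 were tested in the HY and 2 rose, Sim1 (1.13) and Nkx2-1 (1.08), against 7.35% of all genes. Sim1 passed the filter of detection in over 10% of the zone's spots through the aged sections only. Its rise was thus partly set by the filter.

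In P21 vs. adult, of the same lists, 0 of 12 striatal factors tested in the STR changed, Gbx2 (1.34) and Pou4f1 (1.54) of 7 thalamic factors rose in the TH, Pou3f1 (0.61) of 15 pallial factors rose in the CTX, and Tbx3 (1.48) and Nkx2-1 (1.52) of 5 hypothalamic factors rose in the HY. The shares of all genes called higher were 3.02% (STR), 4.86% (TH), 3.54% (CTX) and 2.43% (HY), and 1.07% were called lower in the STR. Pou4f1 in the TH and Tbx3 in the HY passed the filter of detection in P21 vs. adult and not in aged vs. adult. Both genes thus passed it through the P21 sections only, and their rises were partly set by the filter. Gbx2 and Nkx2-1 were tested in both comparisons and were higher than in adults in both. Which sections carried these 2 genes through the filter cannot be told in this way. Pou4f1 is a habenular factor, and the habenula lies beside the thalamus.

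Levels far from the home zones were examined next. Distant spots were spots of the distant zones at least 500 µm from any home-zone spot, with no limit on the distance to other zones. Those of Neurod6 and Neurod2 could lie near the HP, and those of Six3 near the RT, where these genes were higher than at home. For the 3 cortical genes the distant spots were in the TH, HY and STR. Neurod6 was there at 16.5, 18.9, 26.9, 31.2, 3.98 and 3.94 CPM, or 22.4%, 27.1%, 35.2%, 32.7%, 5.50% and 4.43% of its CTX level. Neurod2 was at 17.9%, 22.1%, 29.3%, 28.1%, 2.78% and 4.62% of its CTX level. Tbr1 was at 12.7%, 15.2%, 17.6%, 17.7%, 3.49% and 1.62%. For all 3 the adult sections were the highest and the aged sections far below the other 4.

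**Figure D2:**
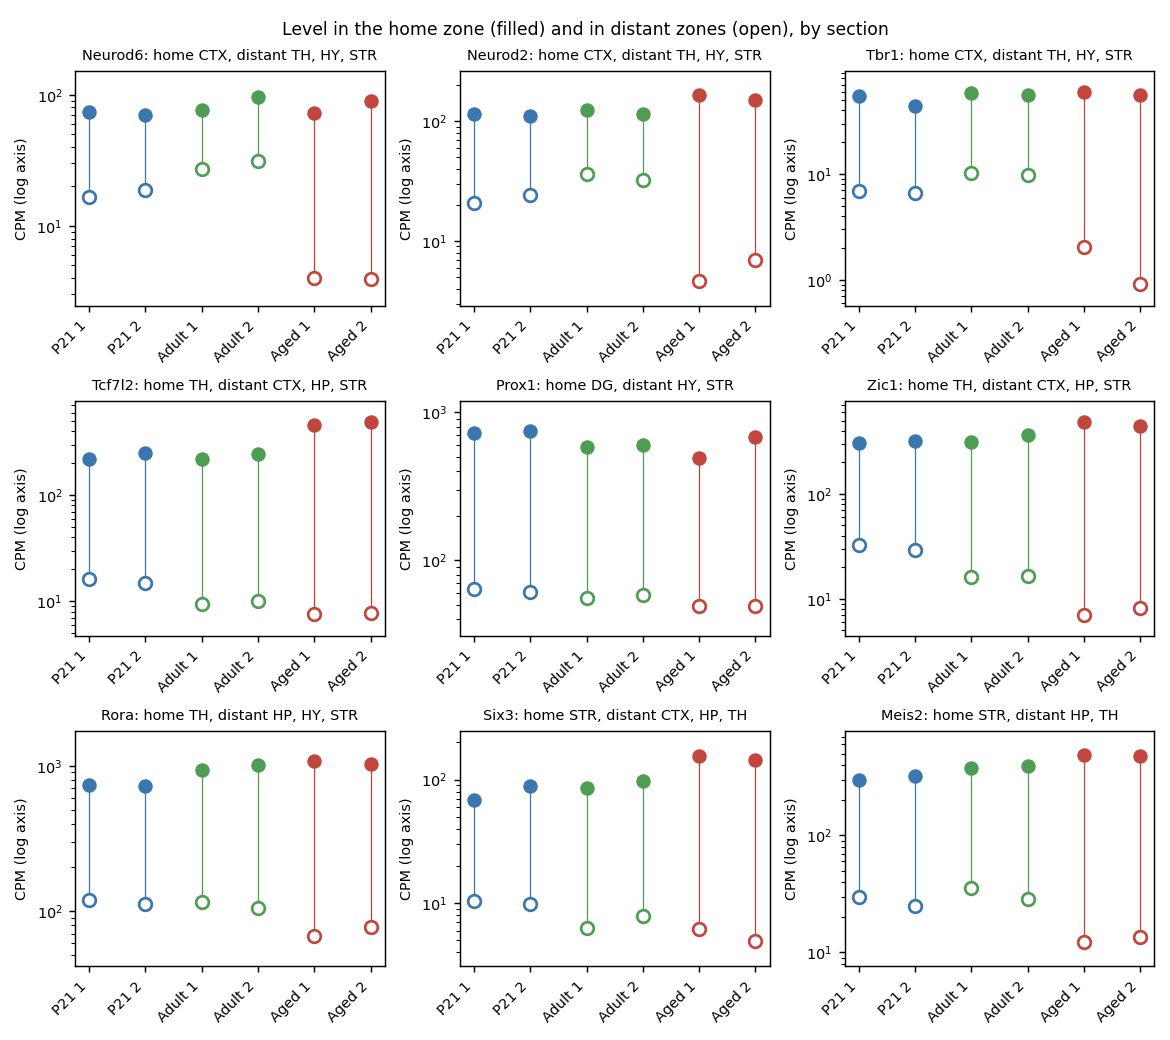
CPM (log axis) of each gene in its home zone (filled) and in distant spots (open) in each of the 6 sections, coloured by age. In the CTX, Neurod6 in the aged sections overlapped P21 and adult. In the distant spots of the aged sections it was at 3.98 and 3.94 CPM, below the other 4.

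For the thalamic genes the distant share was highest at P21 and lowest in the aged sections. Tcf7l2 had 7.36%, 6.03%, 4.27%, 4.13%, 1.65% and 1.6% of its TH level in the CTX, HP and STR. Zic1 had 10.6%, 9.11%, 5.26%, 4.59%, 1.47% and 1.81%. Rora had 16.3%, 15.4%, 12.3%, 10.3%, 6.17% and 7.48% in the HP, HY and STR. The 3 ages did not overlap in this share for any of these 3 genes. The distant level of Rora itself was 119, 112, 115, 105, 66.8 and 77.5 CPM, where P21 and adult overlapped. Its TH level was lowest at P21.

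Among the striatal genes, Six3 had 15.3%, 11.1%, 7.38%, 8.06%, 3.97% and 3.42% of its STR level in distant spots and Meis2 9.99%, 7.66%, 9.36%, 7.20%, 2.5% and 2.85%. Prox1 differed. Its distant share was 8.91%, 8.19%, 9.57%, 9.63%, 10.1% and 7.28%, and the aged sections lay on both sides of the rest. A share depends on the home level too. In both aged sections it was above all other sections for Six3, Tcf7l2, Zic1, Rora, Meis2 and Neurod2. In distant spots Six3 was at 6.29 and 7.84 CPM in adult and 6.13 and 4.95 CPM in aged sections. Tcf7l2 was there at 9.36 and 10.2 CPM in adult and 7.54 and 7.72 CPM in aged sections. Zic1 was at 16.3 and 16.6 CPM in adult and 7.09 and 8.10 CPM in aged sections. Meis2 was at 35.3 and 28.4 CPM in adult and 12.2 and 13.6 CPM in aged sections. For Neurod2 these values were 36.5 and 32.5 CPM, and 4.61 and 6.96 CPM.

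**Figure D3:**
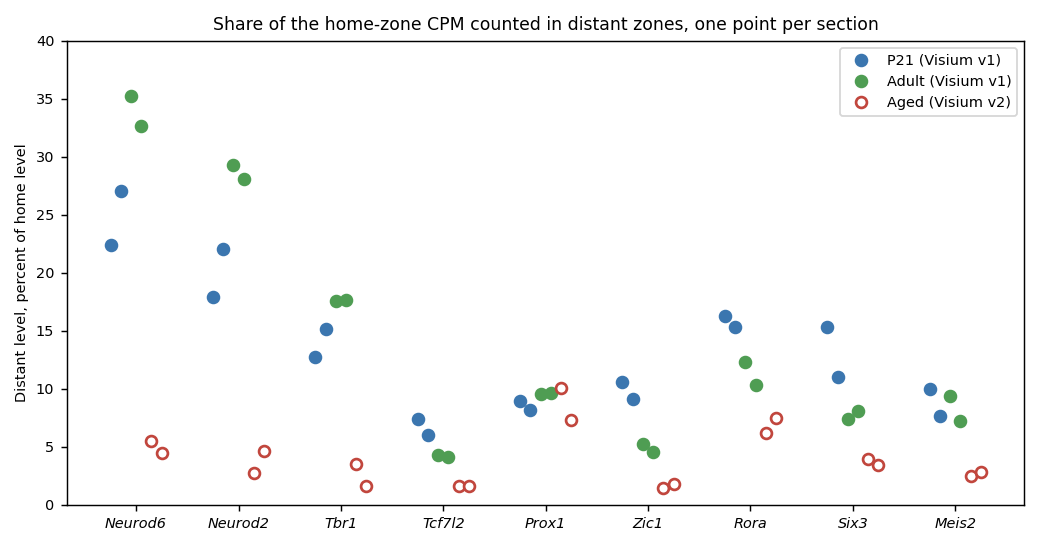
Distant CPM as a percent of the home CPM, 1 point per section and gene, with aged (Visium v2) sections open. In 8 of 9 genes both aged sections lie below the other 4, and Prox1 is the exception.

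Both aged sections thus lay below all 4 Visium v1 sections in 8 of 9 genes. Over all genes with at least 10 home UMIs in each section, the same held for 12.5% with the zones of the cortical genes, 16.2% with those of Tcf7l2 and Zic1, 11.8% with those of Rora, 17.8% with those of Six3, 19.0% with those of Meis2 and 9.74% with those of Prox1. Other genes with a regional pattern were counted too. Of 389 other genes at least 2 times higher in the CTX than in its distant spots in both P21 sections, 289 (74.3%) had a larger home-to-distant ratio in both aged than in both adult sections and 13 had a smaller one. With the zones of Tcf7l2 and Zic1 the ratio was larger in 199 of 367 TH genes (54.2%) and smaller in 33, and with those of Rora larger in 137 of 276 (49.6%) and smaller in 19. Among STR genes it was larger in 109 of 167 (65.3%) and smaller in 11 with the zones of Six3, and larger in 190 of 261 (72.8%) and smaller in 7 with those of Meis2. Among DG genes it was larger in 138 of 502 (27.5%) and smaller in 87. The P21 sections that chose these genes are in neither of the groups compared.

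The distant levels rested on 26 to 2229 UMIs per gene and section. The fewest were for Tbr1 in aged section 2, at 0.914 CPM (exact Poisson 95% interval 0.597 to 1.34), against 9.76 CPM (8.25 to 11.5) in adult section 2. The intervals cover counting error only. Depth was set equal by thinning each spot to 5000 UMIs, which left out 0 to 31 spots of each set. Neurod6 then had a UMI in 7.37%, 8.50%, 15.6%, 12.1%, 1.92% and 1.99% of distant spots, where the widest Wilson 95% interval was 13.1% to 18.5% in adult section 1 and the interval in aged section 1 was 1.28% to 2.86%. In the CTX it was 27.9%, 27.3%, 29.2%, 33.9%, 28.7% and 32.9% of spots. Without thinning the distant shares were 32.2%, 23.3%, 37.8%, 39.3%, 6.18% and 7.60%, at median depths from 14360.5 to 22946.5 UMIs. The distant detection of Neurod6 was therefore lower in both aged sections at equal depth.

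Levels were then set against the distance from the home zone. For Neurod6 and Neurod2 this was the CTX alone. A far bin could thus hold spots near the HP, where both genes were higher. In the first 150 µm beyond the CTX, Neurod2 stood at 49.9%, 52.6%, 37.1%, 40.2%, 32.9% and 45.2% of its CTX level, and the aged and adult ranges overlapped. At 350 to 450 µm it was at 29.0%, 20.9%, 38.1%, 34.9%, 4.42% and 4.22%. At 1500 to 2500 µm it was still at 16.4%, 15.0%, 26.5% and 27.9% in the Visium v1 sections and at 1.56% and 4.36% in the aged ones. Zic1 beyond the TH went at P21 from 39.6% and 18.3% at 250 to 350 µm to 8.85% and 7.64% at 1500 to 2500 µm, against 5.95% and 2.32% falling to 1.15% and 1.28% in the aged sections.

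**Figure D4:**
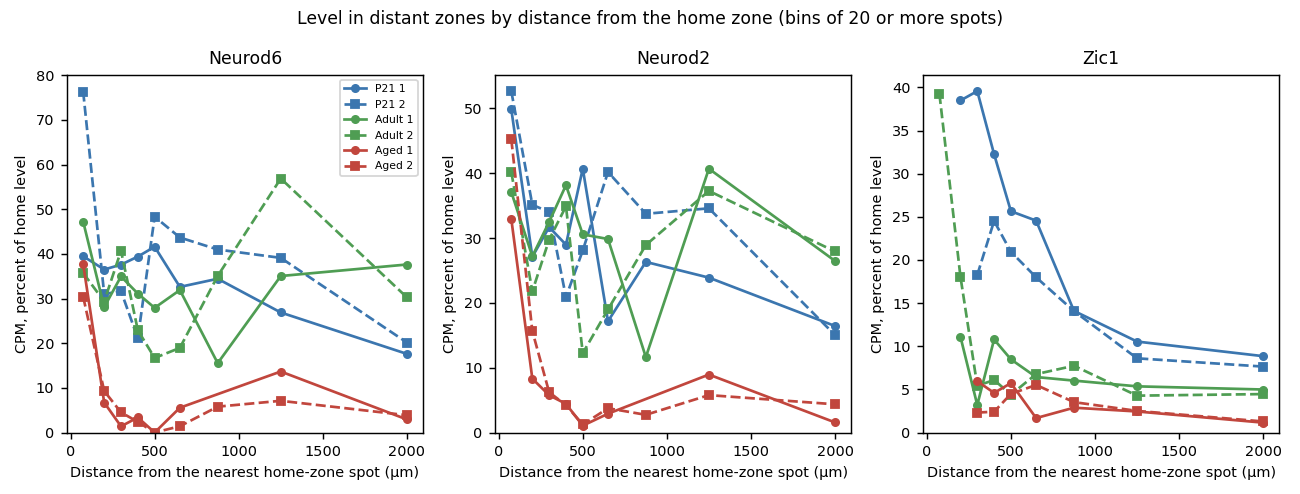
CPM in distant zones as a percent of the home level (y) against the distance from the nearest home-zone spot in µm (x, middle of each bin) for Neurod6, Neurod2 and Zic1, with 1 line per section. For both cortical genes the aged lines lie below all Visium v1 lines in each bin from 150 µm on.

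Each zone other than home was then tested. In aged vs. adult, 28 of 62 tests of the 9 genes in zones other than home (for Prox1, also other than the HP, which holds the DG) were called, 5 higher and 23 lower, while the shares of all genes called lower were 3.56% (CTX), 6.22% (HP), 7.46% (TH), 4.74% (HY), 6.17% (STR), 12.5% (FT), 9% (RT) and 5.54% (MEN). Those called higher were, by zone and in that order, 7.45%, 5.96%, 6.75%, 7.35%, 8.48%, 16.4%, 7.73% and 7.91%. Neurod6 fell in 6 of 7 such zones, Neurod2 in 5 and Tbr1 in 5. In the TH, Neurod6 was at 17.5, 21.3, 28.3, 34.1, 4.02 and 2.65 CPM and fell by 3.21 ± 0.21 on the log2 scale (adjusted p = 5.64e-06), Neurod2 fell by 2.82 ± 0.16 (adjusted p = 2.66e-06) and Tbr1 fell by 2.66 ± 0.26 (adjusted p = 6.70e-05). Meis2 fell in the TH, from 32.3 and 24.8 CPM in adult to 6.88 and 6.42 CPM in aged sections (−2.08 ± 0.16, adjusted p = 1.65e-05). Zic1 fell in the CTX (−1.41 ± 0.12, adjusted p = 1.17e-05) and Rora in the HP (−0.93 ± 0.11, adjusted p = 0.000147). In the HP, where Neurod6 was highest, it rose (0.65 ± 0.09, adjusted p = 0.000321). The mix of HP spots differed between these ages. Spots outside the cell layers were 254 of 354 and 310 of 427 in adult sections. In aged sections they were 160 of 283 and 128 of 240. The part of this mix in the Neurod6 and Rora changes in the HP was not tested.

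Genes of the choroid plexus, a secretory epithelium of the ventricles, also had a lower summed level in the aged sections in the TH and CTX. Their summed level over 7 genes in the TH was 953 to 976 CPM at P21, 613 to 920 CPM in adult and 43.6 to 70.7 CPM in aged sections, and in the CTX it was 522 to 571, 246 to 431 and 29.3 to 29.7 CPM. In the HP (61.5 to 961 CPM in aged, 239 to 549 CPM in adult) and the STR (375 to 1165 and 481 to 742 CPM) the 2 ages overlapped. No gene of the list was at 0 in these zones. The part of these counts in the levels of the 9 genes was not tested.

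In P21 vs. adult, where the slide version is shared, 11 of 63 such tests were called, 8 higher and 3 lower, against 3.54%, 5.42%, 4.86%, 2.43%, 3.02%, 5.82%, 2.02% and 2.54% of all genes called higher with the zones in the same order. Of all genes, 1.58%, 1.57%, 2.73%, 1.79%, 1.07%, 4.32%, 1.16% and 2.3% were called lower. The 3 lower calls were Neurod6 in the TH (−0.67), Neurod2 in the HY (−0.75) and Meis2 in the HY (−1.39). Zic1 rose at P21 in the HP (1.49 ± 0.15, adjusted p = 0.000134), in the CTX (0.83 ± 0.11, adjusted p = 0.000563) and in the STR (0.97 ± 0.21, adjusted p = 0.00759). In the HP it was at 93.8, 68.9, 28.2, 30.1, 21.6 and 19.1 CPM, with the P21 sections highest. Its family members Zic2 (1.26), Zic4 (1.49) and Zic5 (1.27) rose there too. Tcf7l2 rose at P21 in the HP (0.91 ± 0.18, adjusted p = 0.00678), the CTX (0.69 ± 0.13, adjusted p = 0.00357) and the FT (0.93 ± 0.14, adjusted p = 7.96e-05).

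Zic1 is also made by meningeal cells, and markers of other cells moved with it in the HP. Of 8 meningeal genes 5 were tested in the HP and 3 rose at P21, and their summed level was 144 to 154 CPM against 51.7 to 65.2 CPM in adult sections. The choroid plexus list was at 1707 to 3054 CPM against 239 to 549 CPM, with 2 of 5 tested genes higher. The oligodendrocyte list rose in 8 of 8 genes in each of CTX (median 1.38), HP (1.6), TH (1.44) and STR (1.57), and the list of newly formed oligodendrocytes and precursors rose in 5 of 7 genes in the TH (median 1.12). No gene of these lists was at 0 in the HP. The part of these cells in the Zic1 and Tcf7l2 levels was not tested.

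Within the hippocampus, Neurod6 in the DG was higher than in adults at both other ages, at 59.9, 69.0, 30.4, 35.9, 91.9 and 61.5 CPM (P21 vs. adult 0.91 ± 0.23, adjusted p = 0.0155; aged vs. adult 1.13 ± 0.21, adjusted p = 0.00180). Of all genes, 4.52% and 3.92% were called higher there. Both comparisons share the adult sections. Zic1 rose at P21 in CA3 (2.52 ± 0.37, adjusted p = 7.61e-06) and in the DG (2.47 ± 0.32, adjusted p = 3.51e-05), and Prox1 rose at P21 in CA3 (1.16 ± 0.32, adjusted p = 0.0307), where its values of 58.0 and 12.5 CPM in the P21 sections lay on either side of the adult values of 23.0 and 17.6 CPM. In CA3 2.04% of all genes were called higher. In the hippocampal spots outside the cell layers, Neurod2 was at 147, 148, 149.8, 155, 339 and 289 CPM and was higher in aged sections (1.06 ± 0.11, adjusted p = 8.32e-07), as were 8.73% of all genes.

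Whether the contrast of home and distant zones itself differed between age groups was tested across 6 zones with each section as a block. The block takes up a factor that scales a gene alike in a whole section. A slide, probe or software effect that differs between zones is not taken up and stays in the aged vs. adult values. The p-values rest on the spread of zone sums from 2 sections per age. In aged vs. adult, 7 of 9 genes had a larger home-to-distant ratio. The log2 change was 2.44 ± 0.15 for Neurod6 (adjusted p = 1.18e-11), 2.34 ± 0.14 for Neurod2 (adjusted p = 7.73e-12) and 2.36 ± 0.23 for Tbr1 (adjusted p = 7.85e-08). It was 1.71 ± 0.18 for Meis2 (adjusted p = 5.87e-07), 1.31 ± 0.29 for Tcf7l2 (adjusted p = 0.00302), 1.14 ± 0.13 for Zic1 (adjusted p = 4.69e-07) and 0.81 ± 0.11 for Rora (adjusted p = 4.82e-06). The change was 0.93 ± 0.33 for Six3 (adjusted p = 0.0855) and 0.21 ± 0.17 for Prox1 (adjusted p = 0.592), neither of which passed. Of all genes, 5.7% passed with the zones of the cortical genes, 9.81% with those of Tcf7l2 and Zic1, 8.41% with those of Rora, 7.82% with those of Six3, 9.67% with those of Meis2 and 4.52% with those of Prox1. Without adult section 1 or 2, Tcf7l2 no longer passed (adjusted p = 0.102 and 0.0587), and without aged section 1 Six3 and Prox1 passed as well (adjusted p = 0.000251 and 0.0339). Six3 also passed with interior spots (1.46, adjusted p = 0.0258) and with zones from panel scores (1.18, adjusted p = 0.0311). With panel scores the change was smaller for Neurod2 (1.66) and Tbr1 (1.73), which still passed (adjusted p = 1.35e-05 and 1.73e-07).

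In P21 vs. adult, 2 of 9 genes passed, both with a smaller ratio at P21. The log2 change was −1.17 ± 0.13 for Zic1 (adjusted p = 3.15e-06) and −0.50 ± 0.11 for Rora (adjusted p = 0.0146), against 2.61% and 1.31% of all genes with the same zones. For Tcf7l2 it was −0.72 ± 0.29 (adjusted p = 0.210) and for Six3 −0.88 ± 0.32 (adjusted p = 0.567). The other 5 genes changed by −0.13 to 0.31, with adjusted p from 0.426 to 0.925, where 0.273% of all genes passed with the zones of the cortical genes, 3.89% with those of Prox1, 0.0133% with those of Six3 and 0.127% with those of Meis2. Rora did not pass without P21 section 1 or 2 or without adult section 2, and Zic1 passed in every one of the 6 fits that left out a section. Without aged section 1 or 2, Tcf7l2 and Six3 passed too.

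**Figure D5:**
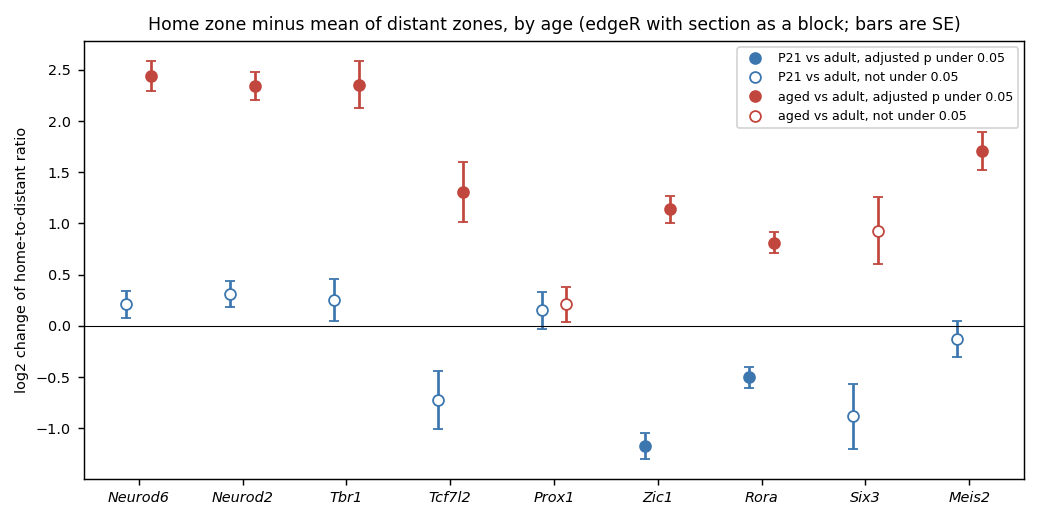
Log2 change of the home-to-distant ratio (y) of each gene for both age comparisons, with SE bars and filled points where the adjusted p is under 0.05. Neurod6, Neurod2 and Tbr1 have the largest increases in aged vs. adult, and Zic1 and Rora decrease in P21 vs. adult.

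The spatial autocorrelation that Space Ranger wrote for each gene, Moran's I, which is near 0 for a gene scattered at random and near 1 for one in clean patches, was higher in the aged sections. For Neurod6 it was 0.418, 0.259, 0.290, 0.346, 0.641 and 0.693, and for Neurod2 0.467, 0.268, 0.303, 0.314, 0.708 and 0.693. For Tcf7l2 it was 0.651, 0.585, 0.634, 0.643, 0.788 and 0.794. In all 9 genes both aged sections were above the other 4, and the gap was smallest for Prox1, at 0.363, 0.271, 0.391, 0.438, 0.466 and 0.458. The median over all genes was 0.0113 to 0.0166 in the Visium v1 sections and 0.0226 and 0.0295 in the aged ones. Moran's I was thus higher in general in the aged sections, which are also the Visium v2 ones. Ranked against all genes of a section, Tcf7l2 stayed between places 11 and 32 in all 6 sections, while Neurod2 went from places 163 to 388 in the Visium v1 sections to 60 and 76 in the aged ones. Prox1 went from places 129 to 378 to 492 and 634. Age, slide version, probe design, Space Ranger version and depth all differed between sections, and their part in the score was not tested.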

How the data were processed

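FFPE brain sections were read with probes of the 10x Genomics mouse panel, whose design, by the study's methods, was changed for the aged libraries. The authors made the deposited counts, UMIs per gene and spot without normalization, with Space Ranger on mm10, by the file headers version 2.0.0 at P21 and in adults and 3.1.1 in aged mice, while the submitters' processing notes name 2.1.0 for all. The deposited Moran's I score per gene is Space Ranger's. Spot positions were read from the deposited tables. Images were not used.

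The 9 members, the zones, the lists and the tests were chosen with earlier results of these data known. The study's criteria were used to remove spots (under 250 genes or 500 UMIs, 12 spots in all). The authors' spot labels were not used here. On 3000 variable genes, without the 9 genes and other listed factors (70 genes), log values standardized within each section were reduced to 10 principal components and clustered (Leiden, 20 neighbours, resolution 0.3) into 13 clusters. A cluster was named where its marker panel reached 0.2 and led the next by 0.15, a lead lowered from 0.2 after the clusters were seen. Cortical and hippocampal parts were named the same way, and 69.7% of spots (3487 of 6676 in the CTX) had the same zone by panel score alone. Spots of unlike cells were not split and no doublet caller was run.

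UMIs were summed per section and zone. Sections, from separate mice, are the replicates, 2 per age. edgeR 4.0.16 in R 4.3.3 fitted the 6 sections of a zone together, by age alone (TMM, glmQLFit, glmQLFTest) over genes kept by filterByExpr and detected in over 10% of the zone's spots at either age compared. SE is the log2 fold change divided by the square root of F. The test of the home-to-distant ratio had section, zone and zone by age as terms over CTX, HP (DG for Prox1), TH, HY, STR and FT. It used sums of whole zones, without the distance limit. Code was tested on simulated data with 200 changed genes in P21 vs. adult. Of 2-fold changes it called 92.9% in the CTX, 78% in the TH, 61.5% in the STR and 49.5% in the DG. Of 1.5-fold changes, which lie at the fold limit, it called 19%, 15%, 12.2% and 7.14%. A change of that size could thus be missed in the home zones. Levels carry no TMM factor. DESeq2 1.42.0 and the other alternatives are given in the closing section. Named genes were the members, list genes called in the zone of their list, and the 3 genes most like each member. Some results on related genes are not reported here.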

Additional observations from a re-analysis of the deposited data

Results flagged for a closer look

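The home-to-distant ratio of 9 gene and age pairs differed between ages by the edgeR interaction test with section as a block. In P21 vs. adult the log2 change was −1.17 for Zic1 and −0.50 for Rora. In aged vs. adult it was 2.44 for Neurod6, 2.34 for Neurod2, 2.36 for Tbr1, 1.31 for Tcf7l2, 1.14 for Zic1, 0.81 for Rora and 1.71 for Meis2. Both contrasts share the adult sections. Groups of 2 sections are too small to search for outlying samples.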

How the results depend on the processing

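Results were recomputed with plain CPM, interior spots, zones from panel scores, thinned UMIs, DESeq2, other filters, a test against the fold limit (glmTreat), the replicate number as a block, and without each section. In the home zones glmTreat called 1 gene in aged vs. adult (Tcf7l2) in place of 2, and leaving out a section gave 2 to 3, and 0 to 0 in P21 vs. adult. For the home-to-distant ratio, leaving out a section gave 1 to 4 genes in P21 vs. adult (1 without either P21 section or adult section 2, and 4 without either aged section) and 6 to 9 in aged vs. adult (6 without either adult section, and 9 without aged section 1). The median log2 ratio of the home level to the level in distant spots, per section, was 3.52, and 3.33 with zones from panel scores. Of 135 such values of the members under other settings, 31 moved by more than the spread between sections of an age. For the change of the ratio in aged vs. adult, panel scores gave 1.66 in place of 2.34 for Neurod2 and 1.73 in place of 2.36 for Tbr1, and Six3 passed with interior spots (1.46) and with panel scores (1.18). Of called member results, 0 of 56 under other settings and 0 of 66 without a section reversed. Uncalled values that changed sign when a section was left out are given as their range over the 6 fits on the log2 scale. They were, in P21 vs. adult, Tcf7l2 in the TH (−0.051 to 0.14), Zic1 in the TH (−0.19 to 0.053), Six3 in the STR (−0.38 to 0.0091) and the ratio of Meis2 (−0.31 to 0.073). In aged vs. adult they were Neurod6 in the CTX (−0.25 to 0.086), Tbr1 in the CTX (−0.027 to 0.085), Prox1 in the DG (−0.28 to 0.19) and the ratio of Prox1 (−0.096 to 0.42). Under other settings, Tbr1 in the CTX in aged vs. adult was −0.031 with interior spots, −0.047 with panel scores and −0.018 with no filter, and Prox1 in the DG was 0.0019 with plain CPM and 0.0064 with thinned UMIs. The ratio in P21 vs. adult was −0.076 for Neurod6 with interior spots and −0.21 for Prox1 with panel scores. The cause was not tested. Where 1 section of an age was left out, the other was assumed to vary like the other ages.

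The sections of an age share no more than a replicate number with those of another. The deviations of same-numbered sections correlated, for P21 and adult, at 0.146 (CTX), 0.134 (STR), 0.014 (TH) and −0.0034 (HP), and for adult and aged at −0.189, −0.167, −0.390 and −0.072, so not every pair was over 0.1. With the replicate block, 2 genes were called in the home zone in aged vs. adult and 0 in P21 vs. adult. With 2 sections per age, an adjusted p over 0.05 does not show that a level was equal.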
